A study of Homo sapiens with 6 samples.

Results

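The genes described here encode 4 related groups of proteins: the matrix metalloproteinases (MMPs), the ADAM and ADAMTS metalloproteases, and the tissue inhibitors of metalloproteinases (TIMPs). They were chosen by name from a table of RNA sequencing counts, as every row whose identifier belongs to a protein-coding gene with an MMP, ADAM, ADAMTS or TIMP symbol. This gave 66 of 20263 rows, namely 23 MMPs, 20 ADAMs, 19 ADAMTSs and 4 TIMPs. HCCLM3, a human cell line established from hepatocellular carcinoma, was kept for 24 h with CC-885 (3 libraries) or with the solvent DMSO (3 libraries). CC-885 is a compound that binds cereblon, the substrate receptor of a ubiquitin ligase, and leads to the breakdown of proteins that the ligase does not otherwise mark. The labels give no dose of CC-885. Nor do they name cultures or dates for single libraries, so every p-value below measures the spread between libraries, which may be technical.

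MMPs are zinc-dependent endopeptidases, most of them secreted as inactive precursors, that cleave collagens, gelatin, elastin and other parts of the extracellular matrix. ADAMs are membrane-anchored, and those with an active catalytic site shed the outer part of growth factors, cytokines and receptors from the cell surface, while ADAMTSs are secreted and act on proteoglycans, procollagens and von Willebrand factor. TIMPs bind the active site of these enzymes, and in liver cancer both proteases and inhibitors are studied for their part in invasion.

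Total counts per library ran from 30432509 to 39809131. The lowest correlation of log2 CPM (counts scaled to a common library total) within a group was 0.977, above the highest of 0.946 between groups. Among 12 markers of hepatocytes and hepatocellular carcinoma, ALB, AFP, GPC3, APOB and TTR had 0 counts in all 6 libraries, so the liver label was not borne out by these genes. The keratins KRT8 and KRT18 made up nearly all of the list's summed level, which was 1361 to 1655 CPM with CC-885 and 1806 to 2211 CPM with DMSO, and HNF4A and KRT8 were called lower. The summed level of 6 fibroblast markers was 152 to 186 CPM with CC-885 and 158 to 189 CPM with DMSO, with LUM at 0. Within that list PDGFRB and DCN were lower and COL1A1 higher with CC-885. Of 4 leukocyte markers, PTPRC, LYZ and CD3E had 0 counts in every library. CD68 stood at 2.26 to 3.23 CPM with CC-885 and 2.19 to 3.25 CPM with DMSO and was not called. Of the exons of CD68, 81.7% are shared with another annotated gene on the same strand. The sum of 3 endothelial markers was 3.11 to 4.93 CPM with CC-885 and 0.872 to 1.35 CPM with DMSO, with CDH5 and VWF called higher (VWF not without CC-885 replicate 1 or DMSO replicate 1 or 2) and PECAM1 near 0. Whether these shifts have a part in the results below was not tested, and in bulk RNA fewer cells of a type cannot be told apart from less RNA per cell.

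With CC-885 the proteases moved in both directions. Of the inhibitors, TIMP1 and TIMP3 fell, and TIMP2 and TIMP4 were not called. ADAMTS1, MMP9 and MMP12 rose by more than 2-fold, ADAMTS5, ADAM17, ADAM9, MMP24 and MMP25 rose by less, and 16 members fell. The calls of ADAM9 and MMP25, and of ADAM22, MMP15 and MMP19 among the 16, did not hold when some single libraries were left out. Of the 66 members, 34 had enough counts for a test, and the edgeR quasi-likelihood test called 8 higher and 16 lower (threshold 0.05 on p adjusted over 13444 genes). Over all tested genes 25.8% were called higher and 26.8% lower, 52.6% in all. The median log2 fold change of the 34 tested members was -0.56 and that of all tested genes -0.04. For tested members with a mean of at least 5 CPM in a group it was -0.27, against 0.04 for all tested genes at such levels. Under 5 CPM in both groups it was -1.27 against -0.52. Of the 34, 3 were called higher and 7 lower by at least 2-fold, against 8.23% and 10.3% of all tested genes. All 7 of these lower members were under 5 CPM in both groups. At those levels 688 of 2406 tested genes were called lower by at least 2-fold. In 8 of the 34 every CC-885 library lay above every DMSO library and in 18 every CC-885 library lay below, against 29.9% and 31.2% of all tested genes. The 18 include 8 members, named below, that entered the test through their DMSO libraries only. In such genes the filter itself favours separate groups, so the 18 are not read as an excess.

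The counts were also taken by level, with no test of a difference between the levels. Of the 20 members with a mean of at least 5 CPM in a group, 6 were called higher and 8 lower, against 29.3% and 24.8% of all tested genes at such levels. Of the 14 tested members under 5 CPM in both groups, 2 were called higher and 8 lower, against 9.89% and 35.7% of the tested genes at those levels. In 8 members (ADAM21, ADAM33, ADAMTS3, ADAMTS4, ADAMTS7, ADAMTS13, MMP23B and MMP28) only the 3 DMSO libraries all exceeded the count limit for testing, and in MMP12 only the 3 CC-885 libraries did. Such a gene enters the test through the group in which it is high, and ADAM21, ADAMTS3, ADAMTS4, ADAMTS7, ADAMTS13 and MMP28 are among the 8 lower calls under 5 CPM. These counts therefore do not speak for all 66 members, and nothing is read from them about level and direction.

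**Figure D1:**
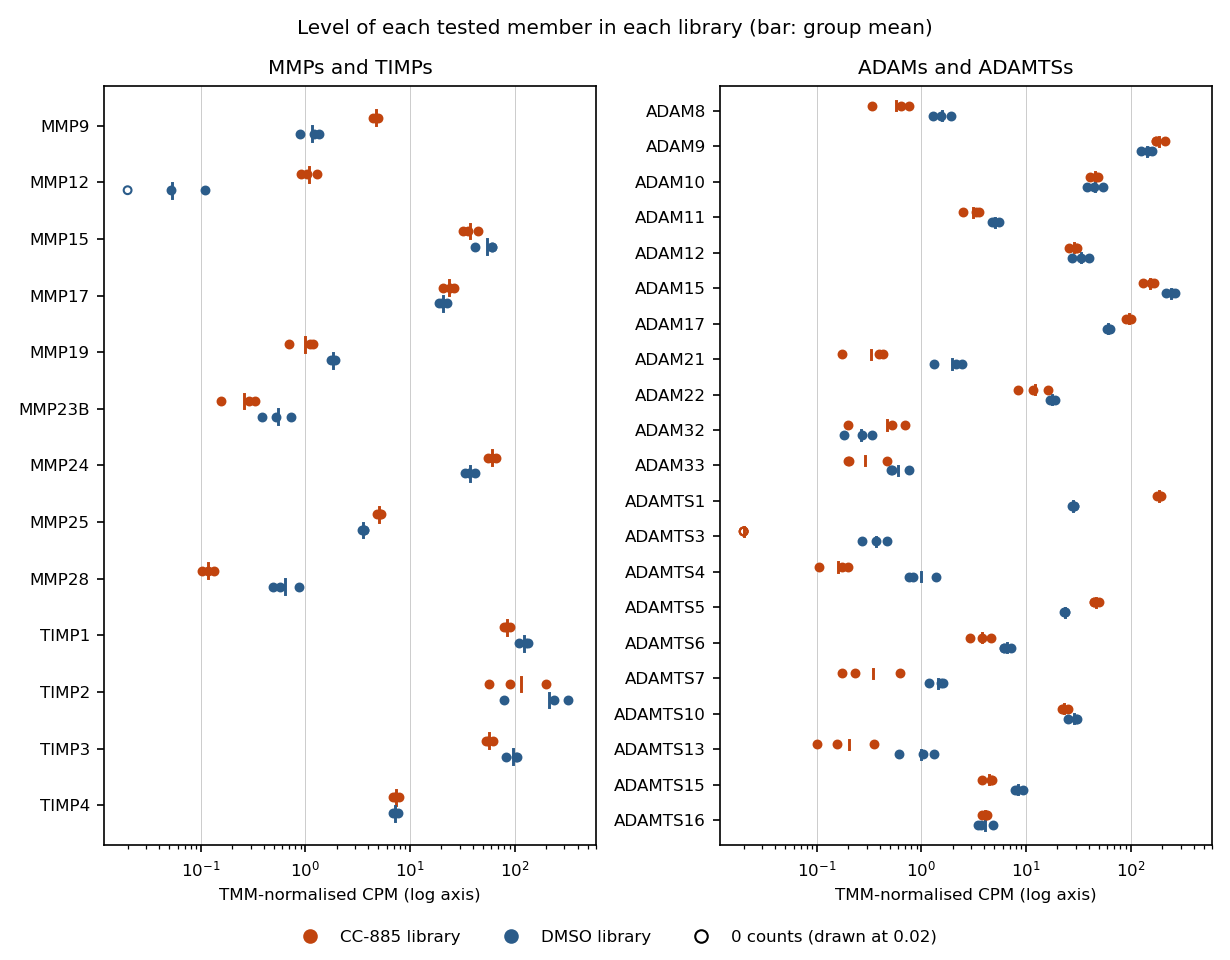
TMM-normalised CPM (horizontal log axis) of the 34 tested members in each library, with CC-885 libraries in red and DMSO libraries in blue. Short vertical bars are group means, and open circles mark 0 counts. The CC-885 and DMSO points of ADAMTS1 stand far apart at 178 to 196 and 27.5 to 29.0 CPM, while those of TIMP2 spread widely within both groups.

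Of the 66 members, 12 had 0 counts in all 6 libraries and 20 had some counts but were not tested, with at most 14 in a library. The collagenases MMP1 and MMP8, the stromelysins MMP3 and MMP10, and MMP16, MMP20, MMP21 and MMP27 were among those at 0 throughout, as were ADAM2, ADAM7, ADAM29 and ADAMTS2. A count of 0 in a library allows up to 0.078 to 0.0999 CPM (3 counts of the normalised library size), a limit that covers counting error only. MMP14, the membrane-type enzyme that activates pro-MMP2, had 4, 2 and 3 counts with CC-885 and 10, 5 and 7 with DMSO. MMP2, the gelatinase that it activates, had 2, 3 and 0 counts with CC-885 and 7, 2 and 2 with DMSO. Both were thus near the limit of detection in each group. MMP13, the collagenase with a broad collagen range, had 4, 0 and 0 counts with CC-885 and 6, 10 and 14 with DMSO. MMP11, grouped with the stromelysins, had 0, 0 and 4 counts against 10, 9 and 6. These genes were not tested, and with no filter on low counts, where 54 members were tested, the calls again numbered 8 higher and 16 lower.

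In the annotation (GENCODE 29) MMP7, MMP20, MMP27, MMP8, MMP10, MMP1, MMP3, MMP12 and MMP13 follow each other with no other protein-coding gene between them. Of these 9 neighbours only MMP12 passed the filter. Promoter sequences (250 bases before to 50 after the annotated start, RefSeq, GRCh38.p14) were matched for 39 of the 66 members, and those of ADAMTS1, ADAMTS5, MMP9 and MMP12 were not among them. They were searched for TGANTCA, which takes in TGACTCA and TGAGTCA, the site of AP-1 (a FOS and JUN dimer known to act on MMP promoters), and also TGAATCA and TGATTCA, which are not that site. The string TGANTCA is its own reverse complement, so a match covers both strands. The letters stood in 4 of the 39 windows, those of MMP7, MMP10, MMP20 and ADAMTS12, and in 7.76% of all 27305 windows in the table. Only MMP7 held an AP-1 site by its letters (TGAGTCA), which is 1 of 39 windows, against 4.92% of all windows with TGACTCA or TGAGTCA, and the other 3 held TGAATCA. None of these 4 genes passed the filter on low counts. Of the tested genes, 4.44% of windows of genes called higher held the letters, 4.67% of those called lower and 4.61% of those not called. With TGACTCA or TGAGTCA alone the shares were 3.03%, 3.02% and 3.21%. TGANTCA was absent from the windows of ADAM17 and MMP24, the 2 members called higher whose windows were matched. It was equally absent from the 11 matched windows of members called lower and the 5 of members not called. The 100 bases before the start are shown for these 2 genes and for MMP7 and MMP10, as examples of a higher member without the letters and of a nearly silent one with them. Capitals mark TGANTCA (the AP-1 site TGAGTCA in MMP7, but TGAATCA in MMP10), and each sequence reads 5′ to 3′ on the gene's strand.
MMP7 (chr11:102530748-102530847, minus strand): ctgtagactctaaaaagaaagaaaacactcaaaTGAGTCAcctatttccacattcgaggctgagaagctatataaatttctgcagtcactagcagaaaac
MMP10 (chr11:102780629-102780728, minus strand): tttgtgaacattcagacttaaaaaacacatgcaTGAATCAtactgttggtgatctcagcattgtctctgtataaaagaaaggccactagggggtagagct
MMP24 (chr20:35226590-35226689, plus strand): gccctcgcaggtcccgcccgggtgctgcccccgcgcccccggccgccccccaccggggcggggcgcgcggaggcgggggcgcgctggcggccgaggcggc
ADAM17 (chr2:9555831-9555930, minus strand): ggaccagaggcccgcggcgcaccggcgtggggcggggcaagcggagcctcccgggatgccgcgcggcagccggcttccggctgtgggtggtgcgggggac
In both MMP7 and MMP10 the letters start 67 bases before the annotated start. Such a match is a description of the letters and not evidence of a bound site.

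Among the MMPs 9 were tested, of which 4 were called higher and 3 lower, against 25.8% and 26.8% of all tested genes. MMP9, gelatinase B, stood at 4.76, 4.91 and 4.45 CPM with CC-885 and at 1.20, 1.36 and 0.890 CPM with DMSO. The groups did not overlap, and the gene rose 4.07-fold (log2 fold change 2.02, SE 0.22, edgeR adjusted p = 3.15e-05). Part of its exons (18.4%) lies opposite the antisense gene SLC12A5-AS1. No source says whether counting used strand, so reads cannot be assigned to either gene of such a pair. MMP12, the macrophage metalloelastase, went from almost no reads to a low level, with 2, 4 and 0 counts in the DMSO libraries and 27, 50 and 36 in the CC-885 libraries. Its level was 0.899, 1.30 and 1.05 CPM with CC-885 against 0.0522, 0.109 and 0 CPM with DMSO. The fitted log2 fold change was 4.21 (SE 0.58, edgeR adjusted p = 0.000137), and it was 5.12 without DMSO replicate 2. The size of the increase is therefore uncertain, and MMP12 entered the test through its CC-885 libraries only.

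The membrane-type MMPs, which sit on the cell surface and cleave matrix around the cell, held most of the MMP counts. MMP24, an enzyme of this type best known from nervous tissue, rose from 36.8, 33.6 and 42.1 CPM with DMSO to 66.3, 61.3 and 55.8 CPM with CC-885, without overlap (log2 fold change 0.71, SE 0.13, edgeR adjusted p = 0.00113). Of its exons 18.1% lie opposite MMP24OS, whose own counts fell (log2 fold change -1.44, edgeR adjusted p = 2.52e-05), the reverse of the direction of MMP24. MMP25, which is held by a lipid anchor and is known from neutrophils, rose from 3.47, 3.68 and 3.62 to 5.16, 5.33 and 4.85 CPM (log2 fold change 0.51, SE 0.17, edgeR adjusted p = 0.025). Its groups did not overlap, but 35.2% of its exons lie opposite MMP25-AS1, and the call did not survive leaving out CC-885 replicate 1 (edgeR adjusted p = 0.0617) or 2 (0.0866), or DMSO replicate 1 (0.0844) or 3 (0.0516). MMP15 went the other way, at 44.9, 32.2 and 35.8 CPM with CC-885 and 61.2, 42.0 and 60.6 CPM with DMSO. It was called lower (log2 fold change -0.54, SE 0.18, edgeR adjusted p = 0.0235) although CC-885 replicate 1 lay above DMSO replicate 2. MMP15 no longer passed when CC-885 replicate 2 (edgeR adjusted p = 0.0974) or 3 (0.0859), or DMSO replicate 1 (0.0872), was left out. The lipid-anchored MMP17 was not called, with 20.7 to 26.2 CPM against 19.1 to 22.4 CPM (log2 fold change 0.20, edgeR adjusted p = 0.267).

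The remaining tested MMPs were weakly expressed and none was called higher. MMP28, also called epilysin and found in epithelia, fell from 0.861, 0.572 and 0.491 CPM with DMSO to 0.133, 0.104 and 0.116 CPM under CC-885 (log2 fold change -2.43, SE 0.47, edgeR adjusted p = 0.00133). MMP19 fell from 1.83, 1.77 and 1.90 to 1.10, 0.702 and 1.19 CPM (log2 fold change -0.88, SE 0.28, edgeR adjusted p = 0.0203). With halved counts MMP28, which had 4 counts in each CC-885 library, no longer passed the filter. Both genes had separate groups, but MMP28 entered the test through its DMSO libraries only. Of the exons of MMP19, 17.4% lie opposite TMEM198B. MMP19 missed the threshold when CC-885 replicate 2 (edgeR adjusted p = 0.0986) or DMSO replicate 1 (0.0574) was left out. MMP23B, a membrane-bound enzyme without the hemopexin domain of other MMPs, had a log2 fold change of -1.08 that did not pass (edgeR adjusted p = 0.0675), at 0.156 to 0.333 against 0.381 to 0.737 CPM. The summed level of all MMPs was 127 to 150 CPM with CC-885 and 103 to 132 CPM with DMSO, so the family total overlapped between the groups.

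**Figure D2:**
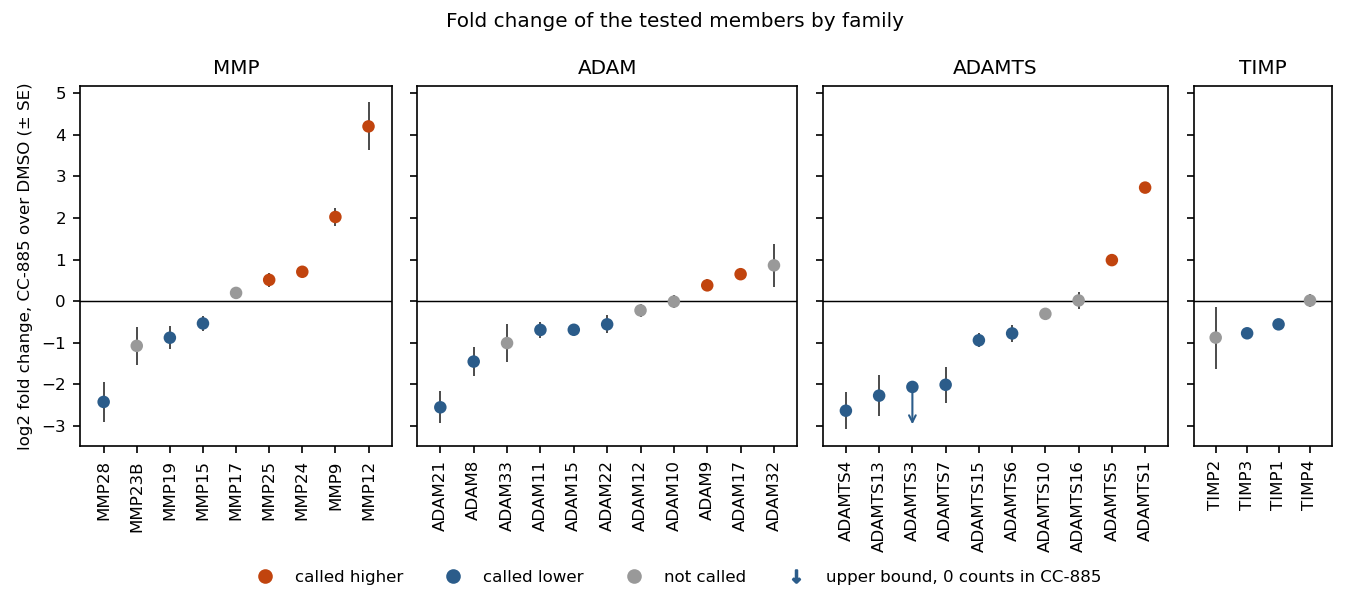
Log2 fold change of CC-885 over DMSO (vertical axis) with its standard error for the 34 tested members, sorted within each family, in red where called higher, blue where called lower and grey where not called. MMP12, ADAMTS1 and MMP9 are the highest at 4.21, 2.73 and 2.02, and ADAMTS3 is drawn at the bound set by 0 counts with CC-885, with an arrow.

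Of 10 tested ADAMTSs, 2 were called higher and 6 lower, against 25.8% and 26.8% of all tested genes. Of the 6, ADAMTS3, ADAMTS4, ADAMTS7 and ADAMTS13 exceeded the count limit for testing in all libraries of the DMSO group only. The 2 that rose are the most abundant of the proteoglycan-cleaving enzymes here. ADAMTS1, which cleaves versican and aggrecan, stood at 196, 191 and 178 CPM with CC-885 and at 29.0, 27.5 and 28.7 CPM with DMSO. The increase was 6.64-fold (log2 fold change 2.73, SE 0.13, edgeR adjusted p = 7.81e-08), with libraries of a group close to each other. ADAMTS5, a main aggrecanase of cartilage, stood at 44.3, 49.7 and 45.2 CPM against 23.2, 23.6 and 23.5 CPM, a 1.98-fold increase (log2 fold change 0.99, SE 0.12, edgeR adjusted p = 7.02e-05). ADAMTS1 and ADAMTS5 are direct neighbours among protein-coding genes of the annotation. ADAMTS1 alone gave 69.0 to 70.5% of the summed ADAMTS level (CPM) in CC-885 libraries and 26.7 to 28.9% in DMSO libraries. The family sum was 258 to 278 CPM against 99.1 to 109 CPM, and without ADAMTS1 it was 80.1 to 86.1 CPM against 70.5 to 79.6 CPM.

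Other proteoglycan-cleaving ADAMTSs fell. ADAMTS15, a versican-cleaving enzyme, went from 9.42, 7.87 and 8.13 CPM with DMSO to 4.63, 4.76 and 3.84 CPM under CC-885 (log2 fold change -0.94, SE 0.17, edgeR adjusted p = 0.000791). ADAMTS4, an aggrecanase like ADAMTS5, went from 1.38, 0.763 and 0.829 to 0.200, 0.104 and 0.174 CPM (log2 fold change -2.64, SE 0.45, edgeR adjusted p = 0.000522). The groups of both genes were separate, but ADAMTS4 entered the test through its DMSO libraries only. ADAMTS4 and ADAMTS5 were called in opposite directions, the first at a level near 1 CPM and the second above 20 CPM. ADAMTS8, ADAMTS9 and ADAMTS20 had at most 5 counts in any library and were not tested.

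ADAMTS3, which removes the amino-terminal propeptide of procollagens and takes part in the processing of VEGFC, had 18, 10 and 12 counts with DMSO and 0 in every CC-885 library. Against a floor of 3 counts per library it was at least 4.19-fold lower (edgeR adjusted p = 0.000953). Low counts in this table are mostly even, which may mean that both mates of a fragment were counted, and the bound would then be smaller. With halved counts the gene no longer passed the filter. The related ADAMTS14 had 4, 0 and 0 counts with CC-885 and 7, 8 and 3 with DMSO and was not tested, and ADAMTS2 was at 0 throughout.

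ADAMTS13, the protease that trims von Willebrand factor in blood and is made mainly in the liver, fell from 1.33, 1.04 and 0.614 CPM with DMSO to 0.0999, 0.156 and 0.349 CPM (log2 fold change -2.28, SE 0.49, edgeR adjusted p = 0.00245), and the value was -2.90 without CC-885 replicate 3. ADAMTS7, an enzyme that cleaves cartilage oligomeric matrix protein, fell from 1.59, 1.17 and 1.53 to 0.233, 0.624 and 0.174 CPM (log2 fold change -2.01, SE 0.43, edgeR adjusted p = 0.00249), and the value was -2.79 without CC-885 replicate 2. In both genes the highest CC-885 library stayed below the lowest DMSO library, but both entered the test through their DMSO libraries only. ADAMTS6 fell from 7.13, 6.18 and 6.23 to 2.90, 3.82 and 4.65 CPM (log2 fold change -0.78, SE 0.20, edgeR adjusted p = 0.0069). ADAMTS10, its paralog known from fibrillin microfibrils, was not called, at 21.9 to 24.9 against 25.2 to 30.7 CPM (log2 fold change -0.31, edgeR adjusted p = 0.079), but passed as lower without DMSO replicate 3 (-0.39, adjusted p = 0.0373) and when genes were limited to at least 5 CPM (-0.37, adjusted p = 0.0387). ADAMTS16 was near 4 CPM in both groups (log2 fold change 0.01, SE 0.19, edgeR adjusted p = 0.956).

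Of 11 tested ADAMs, 2 were called higher and 5 lower, against 25.8% and 26.8% of all tested genes. ADAM21, among the lower calls, exceeded the count limit for testing in all libraries of the DMSO group only. ADAM17, the enzyme that releases TNF and several ligands of the EGF receptor, stood at 90.9, 97.5 and 100.4 CPM with CC-885 and at 59.3, 63.4 and 61.6 CPM with DMSO. The increase was 1.57-fold (log2 fold change 0.65, SE 0.12, edgeR adjusted p = 0.000802). Of its exons 12.3% lie opposite IAH1, which fell (log2 fold change -0.90, edgeR adjusted p = 0.0232). ADAM10, the sheddase that cleaves NOTCH receptors and the amyloid precursor, did not follow, with 41.0, 47.0 and 48.3 CPM against 44.4, 54.9 and 38.1 CPM. Its log2 fold change was -0.01 (SE 0.15, edgeR adjusted p = 0.951), and its groups overlapped fully. ADAM9, another widely expressed sheddase, was called higher at 174, 173 and 213 CPM against 126, 159 and 145 CPM (log2 fold change 0.38, SE 0.14, edgeR adjusted p = 0.0427). Its groups were separate, but ADAM9 did not pass without CC-885 replicate 1 (edgeR adjusted p = 0.0612), 2 (0.0647) or 3 (0.16), without DMSO replicate 1 (0.181), with library totals as the only scaling (0.0855) and with the limit of 5 CPM (0.0823).

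The 5 ADAMs that fell include the most abundant in DMSO. ADAM15, whose disintegrin domain carries an integrin-binding motif, went from 268, 249 and 219.6 CPM with DMSO to 168, 156 and 132 CPM under CC-885 (log2 fold change -0.69, SE 0.14, edgeR adjusted p = 0.00188). The groups were separate. A small part of its exons (4.6%) is shared with DCST1 on the same strand, which fell as well (log2 fold change -1.91, edgeR adjusted p = 0.000444) but was far less abundant, at 1.17 and 4.39 CPM. ADAM8, known from leukocytes, fell from 1.28, 1.91 and 1.53 to 0.633, 0.338 and 0.756 CPM (log2 fold change -1.46, SE 0.35, edgeR adjusted p = 0.00465). ADAM21, a gene described mainly in testis, fell from 2.14, 2.42 and 1.32 to 0.433, 0.390 and 0.174 CPM (log2 fold change -2.56, SE 0.39, edgeR adjusted p = 0.000266), and its near neighbour and close relative ADAM20 had at most 4 counts in a library.

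ADAM11 and ADAM22 lack an active catalytic site and act as adhesion proteins or receptors. ADAM11 fell from 5.48, 4.90 and 4.76 to 3.56, 3.30 and 2.50 CPM (log2 fold change -0.69, SE 0.20, edgeR adjusted p = 0.0114). ADAM22, a receptor for LGI proteins at synapses, stood at 11.7, 8.32 and 16.3 CPM with CC-885 and at 16.9, 17.7 and 19.0 CPM with DMSO (log2 fold change -0.56, SE 0.22, edgeR adjusted p = 0.0485). The CC-885 libraries of ADAM22 differed among themselves, and ADAM22 did not pass without CC-885 replicate 1 (edgeR adjusted p = 0.115) or 2 (log2 fold change -0.34, adjusted p = 0.177), without DMSO replicate 1 (0.0865), 2 (0.13) or 3 (0.103), or with DESeq2 size factors (0.057). ADAM12, a sheddase found in muscle and placenta and raised in many tumours, was not called at 26.0 to 30.9 against 27.4 to 40.5 CPM (log2 fold change -0.22, edgeR adjusted p = 0.254). ADAM33 had a log2 fold change of -1.01 (edgeR adjusted p = 0.0775), which passed only without CC-885 replicate 2 among the alternatives (-1.55, adjusted p = 0.0343), and ADAM32 one of 0.86 (adjusted p = 0.178), both under 1 CPM in every library. The summed ADAM level was 513 to 544 CPM with CC-885 and 533 to 582 CPM with DMSO.

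All 4 inhibitors were expressed, and 2 were called lower and none higher, against 26.8% and 25.8% of all tested genes. TIMP1, a secreted inhibitor of most MMPs, fell from 127, 110.4 and 133 CPM with DMSO to 90.2, 82.3 and 79.2 CPM under CC-885 (log2 fold change -0.56, SE 0.13, edgeR adjusted p = 0.0035). TIMP3, which binds to the matrix and also inhibits ADAM17 and the aggrecanases ADAMTS4 and ADAMTS5, fell from 104, 83.1 and 106 to 62.1, 53.1 and 56.0 CPM (log2 fold change -0.78, SE 0.14, edgeR adjusted p = 0.000692). Neither gene's groups overlapped, and both calls held under each alternative that was run. TIMP4 was level, with 7.23, 7.77 and 6.86 CPM against 7.65, 6.84 and 7.18 CPM (log2 fold change 0.01, SE 0.15, edgeR adjusted p = 0.951).

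TIMP2, an inhibitor that also takes part in the activation of MMP2, varied more between libraries of a group than between groups. It stood at 201, 57.2 and 89.9 CPM with CC-885 and at 238, 79.4 and 323 CPM with DMSO (log2 fold change -0.88, SE 0.75, edgeR adjusted p = 0.382). CC-885 replicate 1 and DMSO replicates 1 and 3 were the high libraries. The log2 fold change was -1.53 without CC-885 replicate 1, -0.55 without CC-885 replicate 2 and -0.45 without DMSO replicate 3. The SD was 65.0% of the mean with CC-885 and 57.9% with DMSO, where the median over 10395 genes with at least 5 CPM in both groups was 8.54% and 13.1%. Only 0.51% of those genes varied more among CC-885 libraries and 0.731% among DMSO libraries. Because TIMP2 was so abundant, the summed TIMP level followed it, at 200.4 to 361 CPM with CC-885 and 279.7 to 569 CPM with DMSO.

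Divided by the length of annotated exons, levels can be set side by side between genes, but only roughly. The length merges the exons of all annotated transcripts of a gene and can exceed that of the transcripts expressed, so the ranks depend partly on the annotation. In the DMSO libraries TIMP1 was highest with 80.3 ± 7.76 CPM per kb (mean ± SD, n = 3), followed by TIMP2 (37.9 ± 21.9), ADAM15 (37.3 ± 3.68), TIMP3 (21.2 ± 2.75) and ADAM9 (20.8 ± 2.41). TIMP2 and ADAM15, and TIMP3 and ADAM9, were closer than their SDs. The highest MMP was MMP15 with 12.4 ± 2.47 CPM per kb and the highest ADAMTS was ADAMTS10 with 5.02 ± 0.523. With CC-885 TIMP1 was still at the top with 54.5 ± 3.69 CPM per kb. ADAM9 (27.0 ± 3.24) and ADAMTS1 (26.7 ± 1.32) came next, and ADAMTS1 had moved from rank 12 to rank 3 of the 34 tested members. MMP9 went from rank 23 to rank 16 and MMP12 from rank 33 to rank 22, where their levels were 2.02 and 0.577 CPM per kb. MMP24 was the highest MMP with CC-885, at 13.9 ± 1.20 against 8.51 ± 1.48 CPM per kb for MMP15.

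**Figure D3:**
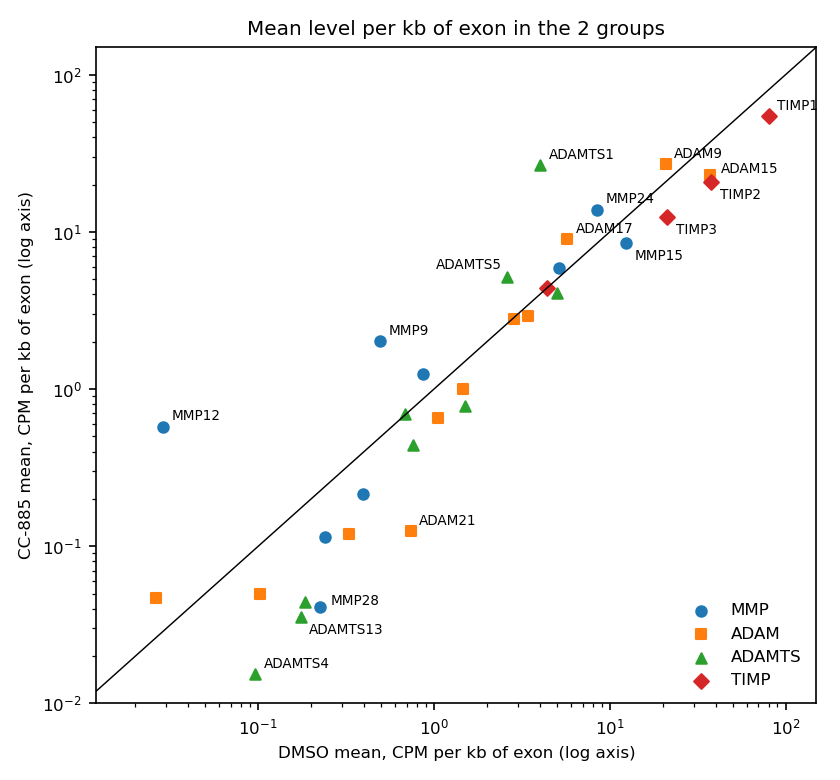
Mean level in CPM per kb of annotated exon with DMSO (horizontal log axis) and with CC-885 (vertical log axis) for tested members, by family, with a line of equal level. ADAMTS3 is left out because it had 0 counts with CC-885, and ADAMTS1, MMP9 and MMP12 lie farthest above the line.

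Genes that act on or with these proteases were taken as lists by role, and no list was tested as such. Each list is a selection of genes, chosen with earlier results of these data known, so its counts are descriptions only. Of the 16 listed AP-1 and ETS family transcription factors, 15 were tested, 13 were called higher and none lower, against 25.8% and 26.8% of all tested genes. JUN went from 33.4 ± 6.07 to 684 ± 53.1 CPM (log2 fold change 4.35, edgeR adjusted p = 5.36e-08) and FOSL1 from 10.0 ± 2.56 to 70.1 ± 6.78 CPM (2.81, adjusted p = 1.14e-06). The ETS factors ELK1 (0.11) and ELK3 (-0.15) were not called.

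Of 20 proteins that ADAM10 or ADAM17 sheds, 17 genes were tested, 6 were called higher and 2 lower, against 25.8% and 26.8% of all tested genes. TNF, the cytokine from which ADAM17 takes its other name, rose from 0.188 ± 0.0707 to 4.80 ± 0.0554 CPM (log2 fold change 4.66, edgeR adjusted p = 9.28e-07). HBEGF, a ligand of the EGF receptor, rose from 5.29 ± 1.33 to 40.8 ± 2.02 CPM (2.95, adjusted p = 9.92e-07). The interleukin receptor gene IL6R fell from 18.7 ± 2.74 to 6.25 ± 0.721 CPM (-1.58, adjusted p = 2.49e-05) and the adhesion molecule gene ALCAM from 52.7 ± 3.90 to 32.4 ± 3.97 CPM (-0.70, adjusted p = 0.00119). The substrates NOTCH1, NOTCH2, CD44, APP and L1CAM were not called.

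Of 13 tested partners that carry or process ADAM10 and ADAM17, 2 were called higher and 3 lower, against 25.8% and 26.8% of all tested genes. Of the iRhoms, which bring ADAM17 to the cell surface, RHBDF1 rose (31.6 ± 5.02 against 20.3 ± 1.64 CPM, log2 fold change 0.64, edgeR adjusted p = 0.00394) and RHBDF2 fell (6.43 ± 0.351 against 11.4 ± 2.19 CPM, -0.83, adjusted p = 0.00221). The tetraspanin TSPAN10 fell too (-1.30, adjusted p = 0.00159), while the proprotein convertase PCSK6 was called higher (0.50, adjusted p = 0.0319) and FURIN was not called (0.37, adjusted p = 0.0558). The groups of PCSK6 overlapped, and it did not pass without CC-885 replicate 1 (edgeR adjusted p = 0.102) or 2 (0.0741), without DMSO replicate 1 (0.0887) or 2 (0.0737), or with the limit of 5 CPM (0.0523). Among 6 tested regulators of MMPs 1 was called higher and 4 lower, against the same shares of all tested genes. RECK, a membrane-anchored MMP inhibitor, fell from 17.0 ± 1.69 to 11.1 ± 0.865 CPM (log2 fold change -0.62, edgeR adjusted p = 0.00445), and BSG, also called EMMPRIN, an inducer of MMPs, from 987 ± 150 to 602 ± 42.2 CPM (-0.71, adjusted p = 0.00318). The inhibitor TFPI2 rose from 0.343 ± 0.156 to 0.951 ± 0.232 CPM (1.48, adjusted p = 0.00992; 0.0506 without CC-885 replicate 3).

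**Figure D4:**
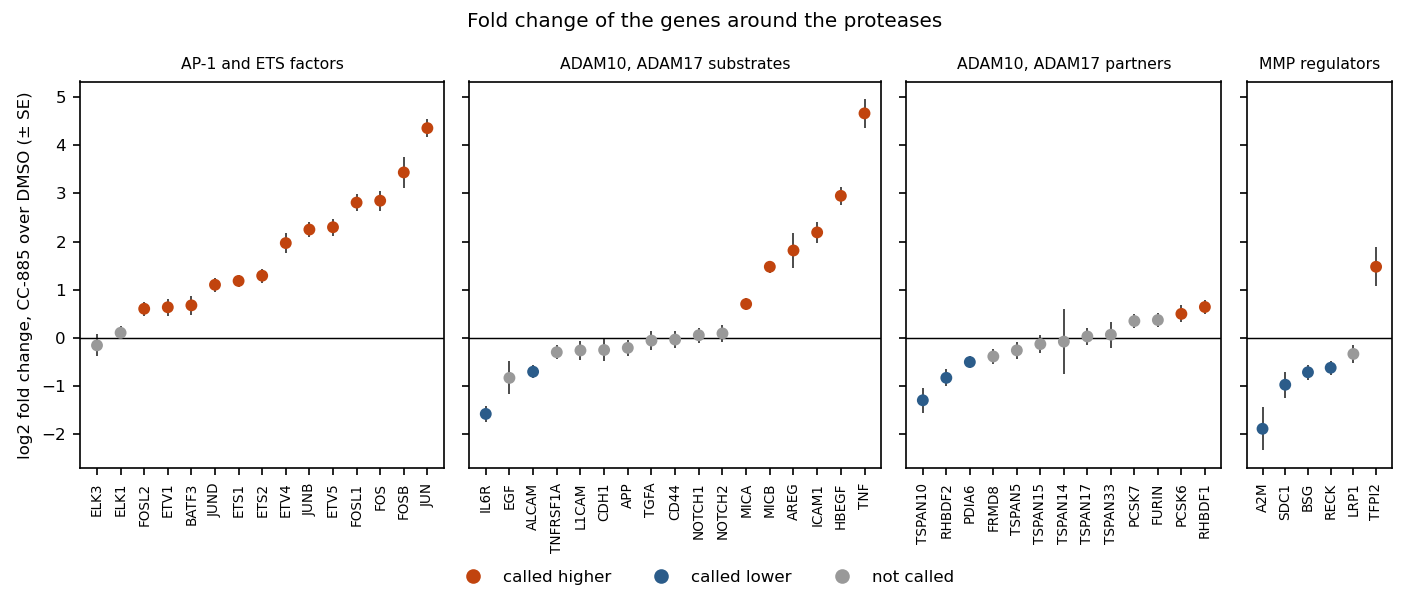
Log2 fold change of CC-885 over DMSO (vertical axis) with its standard error for tested genes of 4 lists: AP-1 and ETS factors, proteins shed by ADAM10 or ADAM17, partners of these 2 enzymes, and other regulators of MMPs. Red points were called higher, blue lower and grey not called, and JUN and TNF are the highest at 4.35 and 4.66.

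Of 12 substrates of ADAMTSs 8 were tested, with 4 called higher and 1 lower, against 25.8% and 26.8% of all tested genes. COL1A1, COL3A1 and VWF of this list are also among the markers above. The same shares over all tested genes stand beside the counts of the lists that follow. THBS1, an adhesive matrix protein that ADAMTS1 cleaves, rose from 41.9 ± 8.42 to 498 ± 28.0 CPM (log2 fold change 3.57, edgeR adjusted p = 1.64e-07) and VEGFC, the lymphatic growth factor, from 1.18 ± 0.231 to 2.89 ± 0.333 CPM (1.30, adjusted p = 0.00117). COMP, a cartilage matrix protein, fell (-1.64, adjusted p = 0.000144). The proteoglycan ACAN was at 0 in all libraries, and VCAN was not tested. Of 5 tested ADAMTS-like genes, whose products resemble ADAMTSs without the protease domain, 3 were called higher and none lower, with ADAMTSL4 at 107 ± 4.76 against 69.2 ± 4.67 CPM (0.63, adjusted p = 0.0011) and ADAMTSL5 at 23.7 ± 1.33 against 15.4 ± 3.89 CPM (0.63, adjusted p = 0.0129). Of 8 other tested zinc metalloproteases 2 were called higher and 2 lower. PAPPA, which cleaves IGF-binding proteins, rose from 30.9 ± 6.09 to 125 ± 7.90 CPM (2.01, edgeR adjusted p = 2.95e-06). PAPPA2 rose from 16.8 ± 2.62 to 24.6 ± 3.76 CPM (0.55, edgeR adjusted p = 0.0149, and 0.0798 without CC-885 replicate 2). ECE2 fell (-0.72, edgeR adjusted p = 0.00272), but 62.7% of its exons are shared with EEF1AKMT4-ECE2 on the same strand. Of the exons of PAPPA, 21.2% lie opposite PAPPA-AS1. TLL2 was called lower (-1.46, edgeR adjusted p = 0.0441), but its groups overlapped at under 1 CPM, and it did not pass without CC-885 replicate 2 (0.129) or 3 (0.153) or DMSO replicate 2 (0.125) or 3 (0.137), with no filter (0.0751), with the replicate block (0.0948), with the DESeq2 Wald test (0.093) or with limma-voom (0.064).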

How the data were processed

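RNA was sequenced from 3 CC-885 and 3 DMSO libraries of HCCLM3 cells. The deposited table gives whole-number counts per gene and library, with no normalization, as its values show. No aligner, counting program, annotation or strand setting is named in the labels. Builds are named in the submitters' processing notes, namely the mouse builds GRCm38 and mm10, whereas the rows carry human Ensembl identifiers. No position is therefore tied to the counts. Of the counts from 1 to 19, 64.9 to 67.2% are even, depending on the library, so fragments may have been counted by both mates.

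Symbols came from a table of gene names, and gene types, exon lengths and overlaps from GENCODE 29. All 66 members had a name. Counts were tested with edgeR 4.0.16 (R 4.3.3): TMM scaling, filterByExpr with a minimum count of 10, robust quasi-likelihood F test with no covariate, Benjamini-Hochberg adjustment, called below 0.05. CPM are TMM-scaled, and SEs are approximate, from dividing the size of the log2 fold change by the root of F. The fit was tested on simulated counts, where it recovered known directions and the share of false calls lay above the nominal level. Alternatives used DESeq2 1.42.0, limma 3.58.1, other filters and scalings, halved counts, a replicate block and each library left out.

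The members, lists and naming rule were chosen with earlier results of these data known. Every tested member is named, called members with each library's value, and up to 2 higher and 2 lower genes of smallest p per list. Genes named as not called or not tested, overlapping genes and the marker genes were named in addition.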

Additional observations from a re-analysis of the deposited data

How the results depend on the processing

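The counts of 8 members called higher and 16 called lower stayed within 1.5 times under other scalings, the DESeq2 Wald test, limma-voom, no filter and halved counts (8 and 14, with 29 members tested). With at least 5 CPM in at least 3 libraries only 18 members were tested, and 4 were called higher and 8 lower. Leaving out each library gave 6 to 8 higher and 14 to 16 lower. Library totals as the only scaling shifted the median of all genes by -0.06. The replicate numbers were not shown to pair the libraries. Same-numbered libraries deviated together with correlations of 0.0958, 0.0311 and 0.0722, and not every library correlated best with its own number. With the replicate block the counts were again 8 and 16.

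The sign reversals concern members near 0 that were not called in either fit. ADAM10 was at 0.0021 under both the size factors and the Wald test of DESeq2, at 0.0001 with no filter, and between -0.13 and 0.15 without single libraries (-0.1323 without DMSO replicate 3, 0.0617 without CC-885 replicate 1, 0.1492 without DMSO replicate 2). ADAMTS16 was at -0.045 with library totals and -0.0019 with halved counts, and ran from -0.0735 to 0.1776 without single libraries (-0.008, -0.0014, -0.0735 and -0.0356 without CC-885 replicates 1 and 2 and DMSO replicates 2 and 3). TIMP4 was at -0.0478 with library totals and -0.0531 with the limit of 5 CPM, and ran from -0.0308 (without CC-885 replicate 2) to 0.0611 (without CC-885 replicate 3), with -0.0149 without DMSO replicate 2. The cause was not tested.

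Among the lists, ADAM10 and ADAM17 partners had 4 called higher with the DESeq2 scaling or Wald test, against 1 with the limit of 5 CPM. Leaving out CC-885 replicate 1 or 2, or DMSO replicate 2, also left 1. The shed substrates had 4 called lower with library totals and 5 without DMSO replicate 2. The other zinc metalloproteases had 1 called lower with the Wald test, limma-voom, halved counts, the replicate block or the limit of 5 CPM, and without CC-885 replicate 3 or DMSO replicate 3. ADAMTS substrates had 2 called lower with the Wald test or limma-voom, and 2 higher and 0 lower with the limit of 5 CPM. The regulators had 0 called higher without CC-885 replicate 3 or with that limit.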
